A study of Mus musculus with 6 samples.

Results

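A set of 10 genes of fibroblast growth factor (FGF) signalling was followed in osteoblasts, the bone-forming cells, of the mouse lower jaw and shin bone. They are the receptors Fgfr1, Fgfr2 and Fgfr3, the ligands Fgf7, Fgf9 and Fgf18, and the feedback inhibitors Spry1, Spry2, Spry4 and Dusp6. These 10 genes were chosen by name out of 19679 gene symbols in the table. They and the other lists below were chosen with earlier results of these data known. Their counts set beside shares of all genes are therefore a description. All 10 had values, and all 10 passed the filter on low values that left 12752 genes for testing.

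The study sorted osteoblasts from the mandible, 3 libraries, and from the tibia, 3 libraries. Mice of both sites were at postnatal day 9 and carried the same transgene, Col1a1*2,3-GFP, which places green fluorescent protein under part of the Col1a1 promoter. Cells freed with collagenase were gated on that fluorescence alone as far as the labels say, so any fluorescent cell could enter the sort. Each of 3 dissections pooled about 50 mice, and the labels give both sites the same dissection numbers, so the replicates are pools and not single animals. All 11 osteoblast markers were detected at both sites. None of 10 tested passed in limma without the dissection as a block, where 0.972% of all genes tested did. With the block 1 of the 10 was called higher in the mandible, where 4.44% of all genes were, and 2 lower, where 2.05% were. Ibsp was the higher one (log2 fold change 0.66, limma adjusted p 0.0192), and Col1a1 (-0.55, 0.0310) and Col1a2 (-0.51, 0.0376) were lower. Runx2, the master regulator, was at 15.0, 14.5 and 13.8 RPKM in mandible libraries, against 14.03, 13.7 and 13.2 RPKM in tibia libraries.

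FGF ligands bind receptor tyrosine kinases on the cell surface together with heparan sulfate chains, and the receptors pass the signal on through the adaptor FRS2 to the RAS and ERK kinases. ERK signalling in turn switches on Sprouty proteins (Spry genes), which dampen the pathway upstream of ERK, and DUSP6, a phosphatase that removes the activating phosphates from ERK in the cytoplasm. In bone, activating mutations of human FGFR2 fuse the sutures of the skull early, and activating mutations of human FGFR3 cause dwarfism of the long bones. The third immunoglobulin domain of FGFR1, FGFR2 and FGFR3 ends in one of a pair of alternative exons, named IIIb and IIIc, which set which ligands bind. FGF7 acts on the IIIb form of FGFR2, typical of epithelium, while FGF9 and FGF18 act mainly on IIIc forms and on FGFR3, typical of mesenchyme.

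The IIIb exons of Fgfr2 and Fgfr3 are shown because they mark transcripts whose values are given for these receptors. Both read from 5′ to 3′ on the gene's strand and come from GENCODE M21 transcripts on GRCm38, the build of the deposited values. The exon of Fgfr2 has 148 bases (chr7:130199758-130199905, minus strand) and that of Fgfr3 has 151 bases (chr5:33731281-33731431, plus strand). Each lies on the 5′ side of the IIIc exon of the same gene. Capitals mark the bases identical in both, 77 of 151 aligned positions or 51.0%. None of the 3 Fgfr1 transcripts in the table carries a IIIb exon.
Fgfr2 IIIb: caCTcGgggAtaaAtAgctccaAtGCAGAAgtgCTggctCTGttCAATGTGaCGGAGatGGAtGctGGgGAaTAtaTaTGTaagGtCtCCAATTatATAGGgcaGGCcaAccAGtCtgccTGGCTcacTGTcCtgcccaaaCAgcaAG
Fgfr3 IIIb: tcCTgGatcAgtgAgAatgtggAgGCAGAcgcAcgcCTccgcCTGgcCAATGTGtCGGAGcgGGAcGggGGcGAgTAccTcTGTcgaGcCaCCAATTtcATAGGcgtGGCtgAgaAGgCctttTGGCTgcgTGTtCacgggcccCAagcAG

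Values are RPKM, read number scaled by transcript length and by the mapped reads of the library, summed over the transcripts of a gene, and are given for dissections 1, 2 and 3 in turn. RPKM is a level per length, so levels can be compared between genes. Differences are log2 fold changes of RPKM + 0.5, mandible minus tibia, each with a standard error (SE), and adjusted p-values are those of limma with Benjamini-Hochberg adjustment over all 12752 genes. Read totals recovered from the values were 49.5 to 58.1 M in mandible libraries and 49.2 to 52.0 M in tibia libraries. The median log2 fold change of all genes tested was 0.12, and it was -0.01 after quantile normalization, so a value near 0.12 lies with the bulk of the genes. In bulk libraries like these, fewer cells that carry a transcript and less of it per cell cannot be told apart.

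None of the 10 genes passed an adjusted p of 0.05 in limma with the site alone, a rule that called 0.972% of all genes tested, 0.87% as higher and 0.102% as lower in the mandible. At an unadjusted p under 0.05 there were 2 of 10, Fgfr3 and Fgf9, where 8.99% of all genes reached that level. Fgf9 averaged 0.322 RPKM in the mandible and 0.799 RPKM in the tibia, so it passed the filter of 0.5 RPKM only through the tibia. Counts of genes lower in the mandible that include Fgf9 are therefore a description and no support for a difference. With the dissection as a block, Fgfr3 passed and was higher in the mandible, 1 of 10 where this fit called 6.49% of all genes, 4.44% as higher, and none passed as lower, where it called 2.05%. That split over all genes, 566 higher and 262 lower, became 360 higher and 424 lower after quantile normalization. In the block fit on deposited RPKM an unadjusted p under 0.05 was reached by 5 of 10, against 26.5% of all genes. The 3 mandible libraries lay above all 3 tibia libraries for Fgfr1 and Fgfr3, 2 of 10 genes against 12.6% of all genes tested, and below all of them for Fgf9 and Fgf18, 2 of 10 against 3.05%. The other 6 overlapped between the sites. The median log2 fold change of the 10 was 0.20, and 0.06 after quantile normalization.

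**Figure D1:**
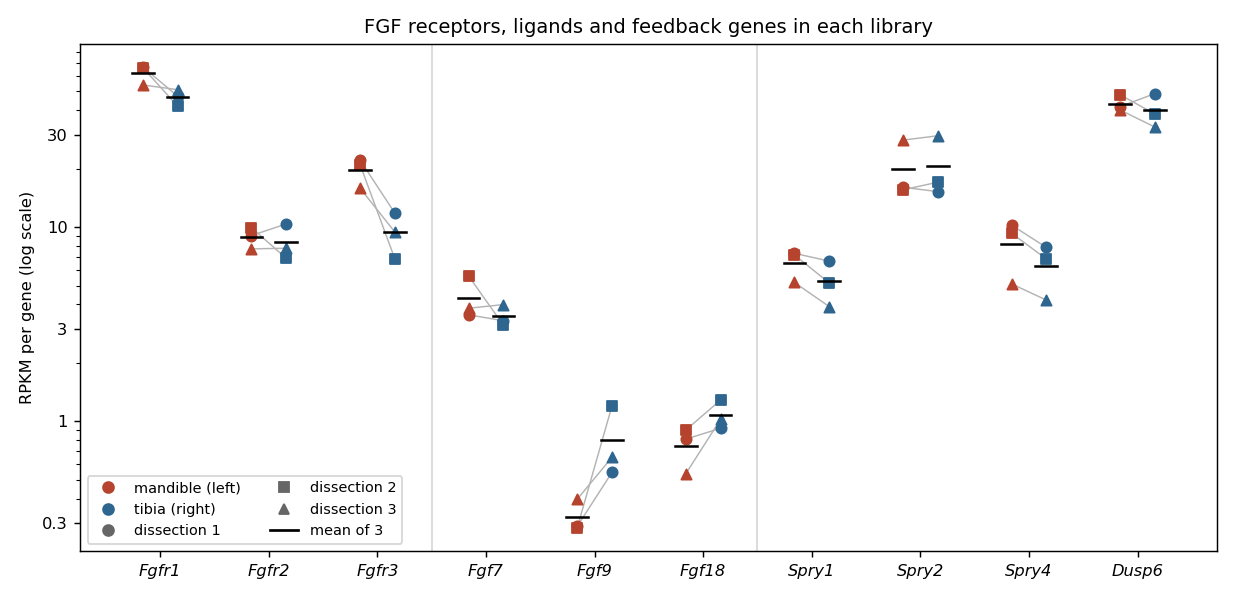
RPKM of the 10 genes in each library (log axis), mandible left of tibia for each gene, with the dissection as marker shape, thin lines joining libraries of one dissection and bars for the mean of 3. Fgfr1 and Fgfr3 have mandible libraries above all tibia libraries, Fgf9 and Fgf18 have them below, and Spry2 is highest in dissection 3 at both sites.

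The ligands were the lowest of the 10 at both sites. Fgf9, a ligand for IIIc receptors that is needed for the growth of the limb bones nearest the trunk in mice, was at 0.288, 0.283 and 0.397 RPKM in mandible libraries, against 0.546, 1.20 and 0.653 RPKM in tibia libraries. The sites did not overlap, and tibia library 2 stood above the other tibia libraries. The means were 0.322 ± 0.0644 RPKM in the mandible and 0.799 ± 0.351 RPKM in the tibia (SD, n = 3 each), with a log2 fold change of -0.63 (SE 0.23, limma adjusted p 0.466, and 0.124 with the block). These levels are low: at the annotated length of 1593 bases they stand for about 22.7, 26.2 and 32.7 reads in mandible libraries and about 42.7, 99.3 and 53.9 reads in tibia libraries. They do not come out as whole numbers, so the length the authors used may differ and the counts are approximate. At a pseudocount of 0.1 the log2 fold change was -1.03, and at 1 it was -0.43. Without tibia library 2 the mean of Fgf9 was below the filter and it was not tested.

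Fgf18, a ligand known to promote osteoblast formation and to slow the growth of cartilage cells through FGFR3, was at 0.810, 0.901 and 0.537 RPKM in mandible libraries, against 0.921, 1.29 and 1.02 RPKM in tibia libraries. Here too the mandible libraries lay below every tibia library, though by a narrow gap, and each dissection had the lower value in the mandible. The log2 fold change was -0.34 (SE 0.20, limma adjusted p 0.736, and 0.2502 with the block). The Fgf18 sum includes a noncoding transcript, NR_102395, assigned 18.2% of it in every library except tibia library 2, where it had 3.31%. The coding transcript NM_008005 alone was at 0.663, 0.737 and 0.440 RPKM in mandible libraries, against 0.753, 1.24 and 0.837 RPKM in tibia libraries, also without overlap. Lower in the mandible in all 3 dissections held for Fgf9 and Fgf18 alone, 2 of the 10 genes against 13.4% of all genes tested. Endothelial markers lay in the same direction, with summed levels of 64.6 to 92.4 RPKM in mandible libraries and 106 to 232 RPKM in tibia libraries. All 6 of 6 endothelial log2 fold changes were below 0, where 67.8% of all genes tested lay above 0. None of the 6 markers was at 0 at either site. With the block 5 of the 6 were called lower, where 2.05% of all genes were, and without it none. Erythroid markers lay the same way: 7 of 7 were below 0, and all 7 were called lower with the block only. The part of these cells in the ligand values was not tested.

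Fgf7, a ligand that mesenchymal cells make for neighbouring epithelium, was the most abundant of the 3 ligands. It was at 3.54, 5.61 and 3.83 RPKM in mandible libraries, or 468, 871 and 529 reads, and at 3.30, 3.13 and 3.99 RPKM in tibia libraries, or 433, 434 and 553 reads. Mandible library 2 was the highest, and the sites overlapped. Its log2 fold change came to 0.26 (SE 0.22, limma adjusted p 0.875), and to 0.080 without mandible library 2 and 0.017 without dissection 2.

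Among the receptors, Fgfr1 was the most abundant at both sites and Fgfr3 showed the largest difference of the 10 genes on the log2(RPKM + 0.5) scale. As a ratio of mean RPKM, mandible over tibia, Fgf9 was farther from 1 at 0.403. Fgfr3, the receptor known for restraining cartilage growth, lies on chromosome 5 (33721724 to 33737068, plus strand, RefSeq GRCm38.p6). It was at 22.2, 21.03 and 15.9 RPKM in mandible libraries, against 11.8, 6.88 and 9.45 RPKM in tibia libraries. Every mandible library was above every tibia library. The means were 19.7 ± 3.35 RPKM in the mandible and 9.39 ± 2.48 RPKM in the tibia (SD, n = 3 each), a ratio of 2.098.

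The log2 fold change of Fgfr3 was 1.05 (SE 0.25, 95% interval 0.45 to 1.65), with a limma adjusted p of 0.202 and an unadjusted p of 0.00463. Taken as a difference within each dissection it was 0.88, 1.54 and 0.72 on the log2 scale. With the dissection as a block the SE was 0.18, the interval 0.62 to 1.47 and the limma adjusted p 0.0239, so with all 6 libraries the call rests on the block. The log2 fold change was 0.92 after quantile normalization, and 0.0355 was then its limma adjusted p with the block.

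Cartilage cells are known to express Fgfr3, and part of the cartilage markers were also higher in mandible libraries. In limma without the block 3 of 10 tested cartilage markers were called higher (Col2a1, Col9a2 and Col9a3), where 0.87% of all genes were, and 7 of 11 had the higher mean in the mandible. Col10a1, the collagen of enlarged cartilage cells, lay the other way: every mandible library was below every tibia library, with a log2 fold change of -1.40 (limma adjusted p 0.439). The summed cartilage level was 119 to 284 RPKM in mandible libraries and 27.5 to 104 RPKM in tibia libraries, and no marker of the list was at 0 in all libraries of a site. Sums of tooth and nerve cell markers were also larger in mandible libraries. In limma without the block 4 of 5 tested ameloblast markers, 3 of 5 odontoblast markers and 2 of 6 Schwann cell markers were called higher, and the mean was higher in the mandible for 6 of 7, 5 of 5 and 6 of 7 of these lists. The exceptions were Klk4, at 0.727 RPKM in the mandible and 1.60 RPKM in the tibia on average, and Sox10, at 0.189 RPKM in the mandible and 0.270 RPKM in the tibia. Ameloblast markers, of enamel-forming cells, summed to 513 to 2183 RPKM in mandible libraries and 6.73 to 9.79 RPKM in tibia libraries, where 1 of the 7 was at 0 throughout. The odontoblast list held Dspp, Lhx8, Barx1, Pax9 and Nes, which are not all confined to dentine-forming cells, and the 3 called were Dspp, Lhx8 and Barx1. It summed to 22.2 to 95.5 RPKM in mandible libraries and 3.45 to 3.91 RPKM in tibia libraries. Dspp alone was at 52.5, 70.2 and 9.53 RPKM in mandible libraries, against 0.0964, 0.135 and 0.235 RPKM in tibia libraries. Schwann cell markers summed to 173 to 215 RPKM in mandible libraries and 69.8 to 102 RPKM in tibia libraries. The part of these cells in the Fgfr3 difference was not tested.

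Fgfr1, the receptor that transduces most FGF signals in mesenchymal cells, was at 66.8, 66.3 and 54.0 RPKM in mandible libraries, against 47.3, 42.0 and 51.1 RPKM in tibia libraries. The gene lies on chromosome 8 (25518759 to 25575718, plus strand). The sites did not overlap, but dissection 3 had close values at both, 54.0 RPKM in the mandible and 51.1 RPKM in the tibia. The means were 62.4 ± 7.27 RPKM in the mandible and 46.8 ± 4.56 RPKM in the tibia (SD, n = 3 each), with a log2 fold change of 0.41 (SE 0.20, limma adjusted p 0.650, and 0.120 with the block). Within dissections the log2 difference was 0.49, 0.65 and 0.08. Without both libraries of dissection 3, a setting chosen with earlier results known, limma gave 0.57 with an adjusted p of 0.0350 for Fgfr1 and 1.21 with 0.0429 for Fgfr3. Over the settings without a block the limma adjusted p ran from 0.0350 to 0.9996 for Fgfr1 and from 0.0429 to 0.9996 for Fgfr3.

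Fgfr2, the receptor of the craniosynostosis syndromes, did not separate the sites. It lies on chromosome 7 (130162451 to 130266808, minus strand). It was at 9.06, 9.95 and 7.73 RPKM in mandible libraries, against 10.4, 6.92 and 7.79 RPKM in tibia libraries, and the highest value of all was a tibia library. For Fgfr2 the log2 fold change was 0.10 (SE 0.21, limma adjusted p 0.968) and -0.02 after quantile normalization. Within dissections it was -0.19, 0.49 and -0.01, with no common direction.

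**Figure D2:**
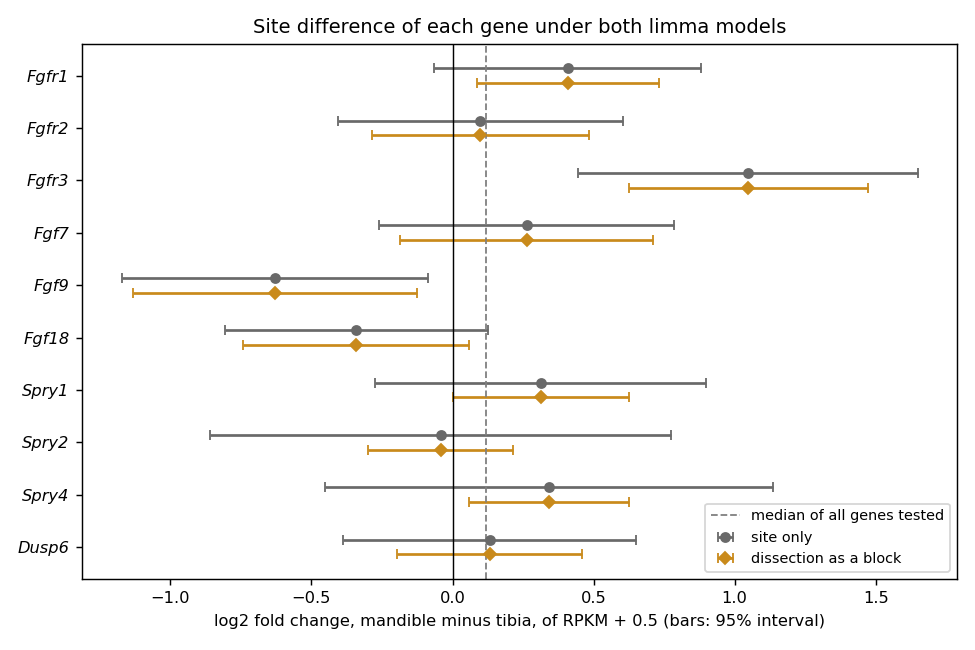
Log2 fold change, mandible minus tibia, of RPKM + 0.5 for the 10 genes with 95% intervals from limma, without and with the dissection as a block. Fgfr3 is at 1.05 in both fits with the narrower interval under the block, and Fgf9 is the lowest at -0.63.

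The make-up of the receptor pool was read as the share of each receptor in the summed RPKM of Fgfr1, Fgfr2, Fgfr3 and Fgfr4, a measure that does not depend on library scaling. Fgfr3 held 22.5%, 21.5% and 20.4% in mandible libraries and 17.0%, 12.3% and 13.8% in tibia libraries. The mean share was 21.5% ± 1.06 in the mandible and 14.4% ± 2.38 in the tibia (SD, n = 3 each), a difference of 7.11 points, with an exact two-sided permutation p of 0.1. That is the smallest p that 3 against 3 libraries allow. The difference was 5.55, 9.21 and 6.57 points within the dissections.

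Fgfr2 held 9.20%, 10.2% and 9.93% of the pool in mandible libraries and 14.9%, 12.4% and 11.4% in tibia libraries. Its share was lower in every mandible library, by 3.13 points on average (exact two-sided permutation p 0.1), although its level overlapped. Shares within a library are parts of the same sum, so a larger share of Fgfr3 goes with smaller shares of the others. The lower share of Fgfr2 is therefore not a result separate from that of Fgfr3. Fgfr1 held 67.9%, 68.0% and 69.4% in mandible libraries and 67.9%, 75.2% and 74.8% in tibia libraries, which overlap (exact two-sided permutation p 0.3). Fgfr4, at 0.2999% to 0.391% in mandible libraries and 0% to 0.158% in tibia libraries, was close to undetected. So Fgfr1 made up more than any other receptor at both sites, with Fgfr3 ahead of Fgfr2 in 3 of 3 mandible libraries and in 2 of 3 tibia libraries.

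The transcript shares of the receptors were compared by the same exact test, which cannot go below 0.1, and all but 1 of the 10 shares overlapped between the sites. The exception was the scarce Fgfr3 transcript NM_001163215, at 2.81% to 4.49% in mandible libraries and 2.53% to 2.80% in tibia libraries. Values of transcripts of one gene are estimated from reads that several of them share, so they are less certain than the gene's sum. Of the 5 Fgfr3 transcripts, all 5 had the higher mean in the mandible. The IIIc exon is in 4 of the 5, which together held 78.0% ± 2.101 of Fgfr3 in the mandible and 76.2% ± 4.803 in the tibia (SD, n = 3 each, exact permutation p 0.6). The most abundant of these 4, NM_001163216, was at 12.6, 13.1 and 10.8 RPKM in mandible libraries, against 6.86, 4.32 and 5.91 RPKM in tibia libraries, without overlap. It made up 62.4% ± 5.81 of Fgfr3 in the mandible and 61.1% ± 2.71 in the tibia (SD, n = 3 each, exact permutation p 1.0).

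The transcript of Fgfr3 with the IIIb exon, NM_001163217, was at 5.03, 4.99 and 3.12 RPKM in mandible libraries, against 3.18, 1.26 and 2.48 RPKM in tibia libraries. Those ranges overlap slightly. Its share was 22.0% ± 2.101 in the mandible and 23.8% ± 4.803 in the tibia (SD, n = 3 each, exact permutation p 0.6). Both of these transcripts begin at the last of the annotated starts of Fgfr3, here called the second start. The other transcripts begin upstream of it, at 33721724 or 33721791 on chromosome 5. Transcripts from the second start held 84.4% ± 4.499 of the gene's level in the mandible and 84.8% ± 3.84 in the tibia (exact permutation p 0.9).

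The exon that begins at that start is also the second exon of the other 3 transcripts. The split therefore rests on the exon upstream of it and on exons further inside. NM_001163216 lacks a 54-base exon that 4 of the 5 transcripts hold, and only NM_001163217 has the IIIb exon. The share cannot be read as use of the second start alone. The promoter window of that second start is shown because most of the Fgfr3 level was assigned to transcripts annotated from it at both sites. Its position is also the 5′ edge of an internal exon of the other 3 transcripts, so the 250 bases before it are intron in them. Whether transcription begins there in these cells was not tested. It runs from 250 bases before the start to 50 bases after it, chr5:33722056-33722355 (plus strand), and was taken from RefSeq on GRCm38.p6. Its GC content is 73.0%, against a median of 52.7% over all 32851 promoters of the table. Capitals mark the motif GGGCGG, the core of a GC box, searched on both strands. It occurs 2 times, the copies overlapping by 1 base and beginning at positions -87 and -82 from the start; 35.7% of all promoters hold the motif, and 19.5% hold it 2 or more times.
Fgfr3 second start: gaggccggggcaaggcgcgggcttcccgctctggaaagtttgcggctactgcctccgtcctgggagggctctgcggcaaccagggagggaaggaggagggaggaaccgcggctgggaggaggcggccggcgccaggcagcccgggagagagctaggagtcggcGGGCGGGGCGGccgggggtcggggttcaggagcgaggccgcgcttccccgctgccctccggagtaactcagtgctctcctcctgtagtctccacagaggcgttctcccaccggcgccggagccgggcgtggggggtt

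For Fgfr1, the transcript NM_001079909, which skips the 267-base exon that encodes the first immunoglobulin domain, held 69.9%, 66.7% and 77.9% in mandible libraries and 69.0%, 64.2% and 79.1% in tibia libraries. Dissection 3 was highest at both sites. The means were 71.5% ± 5.77 in the mandible and 70.8% ± 7.61 in the tibia (SD, n = 3 each, exact permutation p 0.9). All 3 Fgfr1 transcripts carry the IIIc exon.

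For Fgfr2, the transcript with the IIIb exon, NM_201601, was at 3.30, 4.22 and 2.34 RPKM in mandible libraries, against 3.86, 2.19 and 4.07 RPKM in tibia libraries. Its share of Fgfr2 was 36.4% ± 6.11 in the mandible and 40.4% ± 10.6 in the tibia (SD, n = 3 each, exact permutation p 0.6), and the sites overlapped. The 2 Fgfr2 transcripts also differ by the 267-base and 78-base exons, absent from NM_201601, and by the length of the last exon, so the share cannot be read as the IIIb exon alone. Markers of epithelium, the usual source of the IIIb form, summed to 10.8 to 23.2 RPKM in mandible libraries and 3.87 to 4.69 RPKM in tibia libraries, with 2 of 7 tested called higher, where 0.87% of all genes were, and none of the 9 at 0 throughout a site. Their part in the share was not tested.

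**Figure D3:**
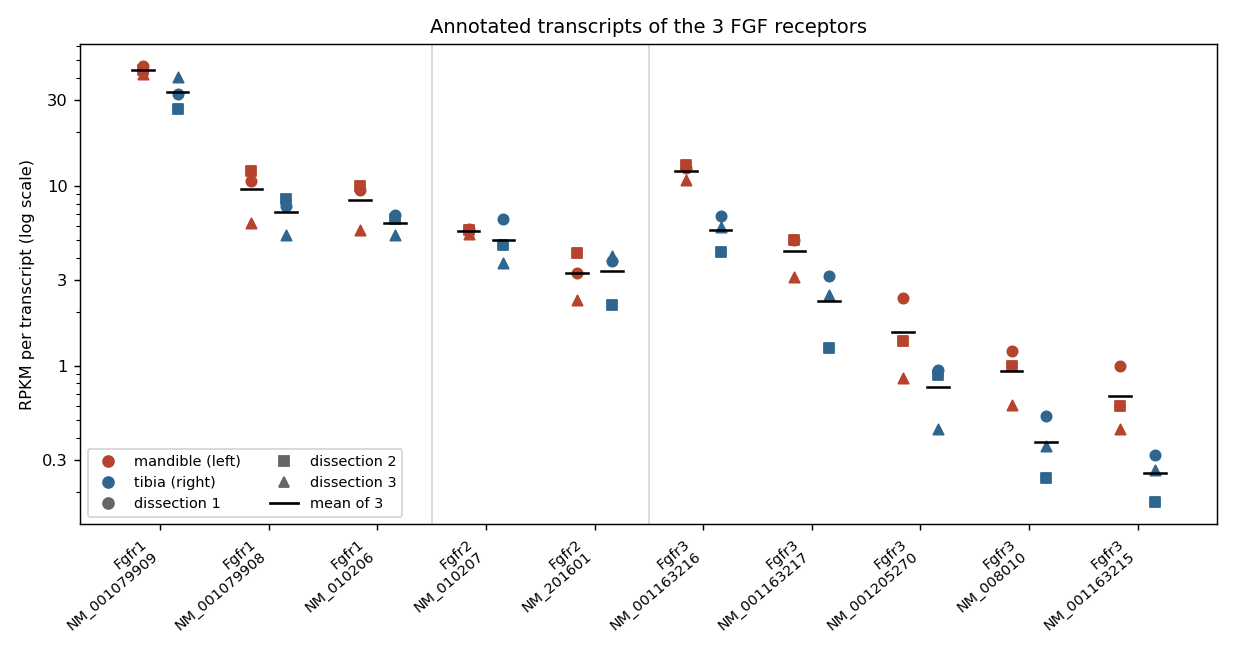
RPKM of the receptor transcripts in each library, mandible left of tibia. The Fgfr3 transcript NM_001163216 lies at 10.8 to 13.1 RPKM in mandible libraries, against 4.32 to 6.86 RPKM in tibia libraries, while the Fgfr2 transcripts overlap between the sites.

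Of the feedback genes, none passed in limma in either fit, and the Sprouty genes varied between dissections at both sites. Dusp6, the ERK phosphatase, ranked next after Fgfr1 at both sites. It was at 41.8, 48.1 and 40.1 RPKM in mandible libraries, against 48.7, 38.3 and 32.8 RPKM in tibia libraries. The ranges overlap, and dissection 1 had the higher value in the tibia where the others had it in the mandible. For Dusp6 the log2 fold change was 0.13 (SE 0.22, limma adjusted p 0.960).

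Spry2, a Sprouty that holds back receptor signalling to RAS, was at 16.05, 15.6 and 28.1 RPKM in mandible libraries, against 15.3, 17.0 and 29.6 RPKM in tibia libraries. Dissection 3 stood well above the others at both sites, and the sites lay close within each dissection. The log2 fold change was -0.04, with an SE of 0.34 without the block and 0.11 with it (limma adjusted p 0.989 and 0.828).

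Spry4, a Sprouty induced by FGF signalling in many tissues, ran the other way across dissections. It was at 10.3, 9.30 and 5.11 RPKM in mandible libraries, against 7.87, 6.86 and 4.21 RPKM in tibia libraries, lowest in dissection 3 at both sites. Within each dissection the mandible value was the higher, by 0.36, 0.41 and 0.25 on the log2 scale. On the log2 scale the site difference was 0.34 (SE 0.33, limma adjusted p 0.908, and 0.135 with the block, where the SE was 0.12). Leaving out 1 library moved it between 0.097 (tibia library 3) and 0.63 (mandible library 3).

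Spry1, a Sprouty known from kidney and muscle development, was at 7.33, 7.20 and 5.19 RPKM in mandible libraries, against 6.69, 5.16 and 3.90 RPKM in tibia libraries. It too was lowest in dissection 3 at both sites. Its log2 fold change was 0.31 (SE 0.25, limma adjusted p 0.863, and 0.189 with the block). The mandible value was the higher one in all 3 dissections for 4 of the 10 genes, Fgfr1, Fgfr3, Spry1 and Spry4, against 36.8% of all genes tested. The transcripts of Spry1 shifted in dissection 3: NM_001305442 held 15.6%, 3.76% and 38.2% in mandible libraries and 2.27%, 1.07% and 71.7% in tibia libraries.

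Dissection 3 differed in other genes too. Col1a1, whose promoter fragment drives the sorted label, was at 17291, 17057 and 5566 RPKM in mandible libraries, against 26205, 24442 and 7990 RPKM in tibia libraries. Of the other osteoblast markers, Sp7, Runx2, Col1a2, Alpl and Dmp1 were also lowest in dissection 3 at both sites. Bglap, Spp1, Phex and Sost went the other way and were highest in dissection 3 at both sites. Ibsp was highest there in the mandible only. Erythroid markers summed to 2204, 7770 and 20660 RPKM in mandible libraries and to 5597, 13827 and 43019 RPKM in tibia libraries. The part of these shifts in the Sprouty values was not tested.

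The order of the 10 levels was the same at both sites. In the mandible Fgfr1 led, followed by Dusp6, then Spry2 and Fgfr3, whose ranges overlapped, then Fgfr2, Spry4, Spry1 and Fgf7, each overlapping its neighbour, and last Fgf18 and Fgf9, which did not overlap. In the tibia Fgfr1 and Dusp6 overlapped, Spry2 stood clear of both neighbours, Fgfr3, Fgfr2, Spry4, Spry1 and Fgf7 each overlapped its neighbour in that order, and Fgf18 and Fgf9 overlapped each other but not Fgf7. So Fgfr3 ranked with Spry2 in mandible libraries and with Fgfr2 in tibia libraries.

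The genes whose log2 levels followed a receptor most closely over the 6 libraries were described by Pearson's r, among 11222 other genes with a mean of at least 1 RPKM. The libraries share sites and dissections, so these values are a description. For Fgfr3 they were Fbxl7, Shd and Aasdh, each at r of 0.991 or more, and 72 genes reached 0.95. For Fgfr1 they were Top3a, Lrp6 and Phf6, at 0.987 or more, among 55 genes that reached 0.95. For Fgfr2 they were Srsf4 at 0.977, Mob1a at 0.972 and Dll1 at 0.962, and 5 genes reached 0.95.

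Other genes of the pathway, in 5 lists, were read beside the 10. Of 19 other ligands 17 were in the table and 3 were tested, and none passed in limma without the block. Fgf21, an endocrine ligand best known from liver, was at 7.85, 6.67 and 3.999 RPKM in mandible libraries, against 1.10, 1.34 and 2.40 RPKM in tibia libraries (log2 fold change 1.66, SE 0.32, limma adjusted p 0.104). It passed with the block (0.0354), 1 of the 3 ligands tested, where that fit called 4.44% of all genes as higher. Fgf1, the most abundant of them, had a log2 fold change of 0.05 (limma adjusted p 0.991). Of 9 other receptors and coreceptors 4 were tested and none passed without the block. Flrt3, a membrane protein that binds FGF receptors, was at 25.2, 26.6 and 15.1 RPKM in mandible libraries, against 6.46, 7.51 and 7.25 RPKM in tibia libraries (log2 fold change 1.55, SE 0.25, limma adjusted p 0.0537). It passed with the block (0.00771), 1 of 4 against the same 4.44%. Its relative Flrt2 was at 0.18 (limma adjusted p 0.926).

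The list of heparan sulfate genes held proteoglycans, which hold FGFs at the cell surface, and the enzymes that build or trim their chains, with 11 and 7 of them tested. Of these 18 genes 1 passed as higher without the block, where 0.87% of all genes did. It was Gpc5, a glypican at 4.20, 3.79 and 1.05 RPKM in mandible libraries and listed at 0 in all 3 tibia libraries (limma adjusted p 0.0487). That call was lost at a pseudocount of 1 (0.0926) and without the filter (0.108), and the adjusted p of Gpc5 ran from 0.00059 without dissection 3 to 0.6445 without dissection 2. With the block 5 of 18 passed as higher, where 4.44% of all genes did, and none as lower. All 5 were proteoglycans: Gpc5, Gpc3, Gpc6, Sdc1 and Sdc4. Sdc4, a syndecan, was at 351, 372 and 355 RPKM in mandible libraries, against 179, 166 and 197 RPKM in tibia libraries (log2 fold change 0.99, SE 0.22, limma adjusted p 0.152 and 0.00468 with the block). Gpc3, a glypican, was at 74.1, 84.8 and 74.1 RPKM in mandible libraries, against 24.2, 35.0 and 14.02 RPKM in tibia libraries (log2 fold change 1.74, SE 0.34, limma adjusted p 0.102 and 0.00743 with the block). Sdc1 was at 0.92 and Gpc6 at 1.05 on the log2 scale, with limma adjusted p of 0.0154 and 0.00778 with the block and 0.397 and 0.624 without it. The syndecan Sdc2, among the most abundant of the list, was at 0.11 (limma adjusted p 0.962). The median of the whole list was 0.20, against 0.12 for all genes.

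The transducers between receptor and ERK lay close together. Of 18 tested none passed in limma, where 0.972% of all genes did without the block and 6.49% with it, so this count is close to those shares. Their log2 fold changes ran between -0.13 and 0.38, and their median was 0.03. Nras was at -0.13 and Mapk3, which encodes ERK1, at -0.04. Of 15 other feedback inhibitors and ERK targets tested, 14 had a log2 fold change above 0, where 67.8% of all genes did, and none passed without the block. Fos, an immediate target of ERK, was at 2011, 2349 and 1539 RPKM in mandible libraries, against 1248, 1361 and 1197 RPKM in tibia libraries (log2 fold change 0.61, SE 0.32, limma adjusted p 0.686), and passed with the block (0.0332). Phlda1 had a log2 fold change of 0.53 (limma adjusted p 0.752, and 0.0468 with the block). With the block 2 of the 15 thus passed as higher, where 4.44% of all genes did. Egr1 was at 0.50 and passed in neither fit (limma adjusted p 0.678, and 0.161 with the block).

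**Figure D4:**
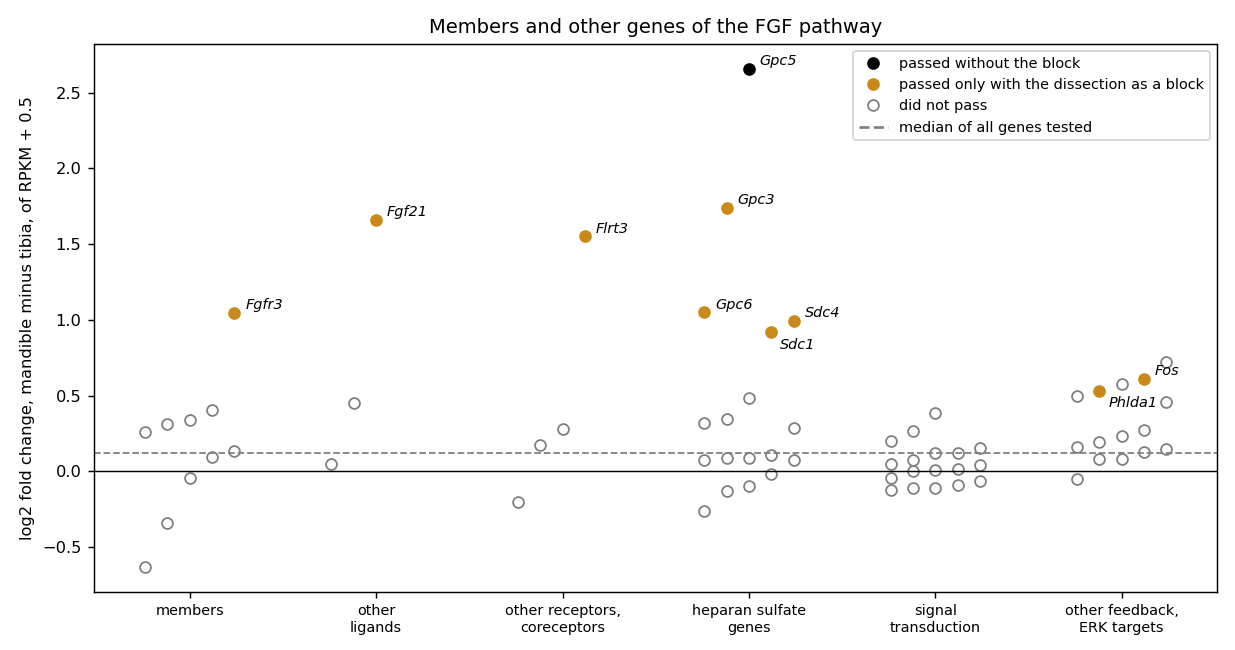
Log2 fold change, mandible minus tibia, of each tested gene of the 10 and of the 5 other pathway lists, filled where limma passed it. Filled points all lie above 0, with Gpc5 the only one filled black for a pass without the block, and the dashed line marks the median of all genes tested at 0.12.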

How the data were processed

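RNA sequencing libraries were made with a low-input kit (SMART-Seq v4, 2 to 8 ng of RNA) and TruSeq and were run on a HiSeq instrument, per the labels' protocols. The authors deposited RPKM values per RefSeq transcript. Per the submitters' processing notes the tools were CASAVA 1.8.2, TopHat2 2.1.0 and Partek 6.6 with the build mm10, but per the file headers Partek 6.15.1207 computed the RPKM values. No strand setting is given in the sources used here, so reads of overlapping antisense genes cannot be told apart.

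Transcript RPKM values were summed per gene symbol, and genes averaging 0.5 or more over 6 libraries were kept. limma 3.58.1 in R 4.3.3 (lmFit, eBayes with trend) tested log2(RPKM + 0.5), two-sided, with Benjamini-Hochberg adjustment over 12752 genes at 0.05. A fold change on this scale understates the change of low genes. The model held the site only; a second fit added the dissection number as a block. Same-numbered libraries share an experiment name in the labels, and their deviations from the site means correlated at 0.594, 0.658 and 0.798 across genes. Libraries 1 and 2 crossed between sites reached 0.550 and 0.524, so the values set apart dissection 3 more than they pair dissections 1 and 2.

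Shares were tested with exact two-sided permutation over 6 libraries, whose smallest p is 0.1, over receptors and transcripts with no adjustment. Read totals came from the steps of low RPKM values of 13733 single-transcript genes, of which 56.2% to 59.4% lay within 0.05 of a whole read; this was too few to run a count test. The limma script was tested on simulated data.

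Genes were named by rule: the 10 members; of the other pathway lists, each gene that passed either fit and the 2 with the highest mean; and 3 genes per receptor with the highest correlation. The members and lists were chosen with earlier results of these data known. Alternatives were the pseudocount (0.1 and 1), the filter, scaling, the block, and leaving out libraries. Sequences were read from GENCODE M21 and RefSeq tables with Biopython 1.88 in Python 3.11.15, and matplotlib 3.10.9 drew the plots. Some sequences are not reported here.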

Additional observations from a re-analysis of the deposited data

How the results depend on the processing

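With the site only, 111 genes were higher and 13 lower in the mandible in limma at an adjusted p of 0.05. With the dissection as a block there were 566 higher and 262 lower, and with the block and quantile normalization 360 and 424. Without dissection 3 there were 557 and 167, without dissection 1 there were 4 and 2, and without dissection 2 there were 0 and 0, with 469 genes at an unadjusted p under 0.05 in limma. Leaving out dissection 1 or 2 was chosen after seeing the data. A minimum mean of 1 RPKM left 8 lower. Leaving out 1 library at a time gave 32 to 129 higher and 5 to 12 lower, and the higher count was within 1.5 times of the full one for mandible library 3 alone. Of the 10 genes, 0 were called higher; 1 was with the block, 1 with the block and quantile normalization, and 2 (Fgfr1 and Fgfr3) without dissection 3, and no setting called a member lower.

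The sign of Fgfr2 turned to -0.022 after quantile normalization, with or without the block, to -0.030 after median-of-ratios scaling and to -0.10 without dissection 2. Without 1 library it ran from -0.021 (tibia library 2 left out) to 0.26. Dusp6 turned to -0.020 after quantile normalization, with or without the block, and to -0.0033 after median-of-ratios scaling. Spry2 ran from -0.31 to 0.24 when 1 library was left out, so none of these 3 kept its direction in all settings. Fgfr3 stayed between 0.85 and 1.22 over those same libraries, Spry1 ran from 0.13 to 0.49 and Dusp6 from 0.00079 to 0.28. After quantile normalization Fgfr1 was 0.27, Spry1 0.20, Spry4 0.22 and Fgf7 0.15. Without mandible library 3 Fgf18 was -0.21, and with the highest transcript per gene Spry1 was 0.51. Leaving out 1 library, the share difference ran from 6.08 to 8.41 points for Fgfr3 and from -3.88 to -2.12 points for Fgfr2, and no share could reach a p of 0.05 in any setting. Fgf9 was below the filter at a minimum mean of 1 RPKM, without tibia library 2 and without dissection 2, and has no value there. The cause of these changes was not tested.

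Each site has 3 pooled preparations, so small differences were not detectable without the block, and the low ligands rest on few reads. The block's calls assume that the dissection numbers pair the libraries.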

Other observations

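Some other genes of the pathway lay below the filter on low values and are given as values only, chosen after they were seen. Fgf10, a mesenchymal ligand for the IIIb form of FGFR2, was at 0.786, 0.933 and 0.706 RPKM in mandible libraries, against 0.0489, 0.0842 and 0.152 RPKM in tibia libraries, so every mandible library lay above every tibia library. Il17rd, a membrane inhibitor of FGF signalling, was at 0.639, 0.592 and 0.287 RPKM in mandible libraries, against 0.129, 0.260 and 0.106 RPKM in tibia libraries, again without overlap. Among the genes that were tested, 12.6% had every mandible library above every tibia library. Dusp9, a relative of Dusp6, was at 0.479, 0.784 and 0.401 RPKM in mandible libraries, against 0.218, 0.121 and 0.00715 RPKM in tibia libraries. Fgf23, the hormone of osteocytes that lowers phosphate, was at 0.434, 0.280 and 0.601 RPKM in mandible libraries, against 0.0979, 0.0499 and 0.364 RPKM in tibia libraries, which overlap. Its coreceptor Kl did not exceed 0.0636 RPKM in any library. Fgf14, of the list of other ligands, lay the other way. It was at 0.0930, 0.0800 and 0.0410 RPKM in mandible libraries, against 0.221, 0.157 and 0.212 RPKM in tibia libraries, without overlap. Of the genes tested, 3.05% had every mandible library below every tibia library.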
